A study of Mus musculus with 4 samples.

Results

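CD8+ T cells sorted from mouse tumours were compared between a library made from mice with Bfar deleted in CD8+ T cells (KO) and a library made from wild-type mice (WT). The cells studied were barcodes that carried at least 1000 unique molecular identifiers (UMIs), at least 500 genes, no more than 10% UMIs of mitochondrially encoded genes, at least 1 UMI of Cd3d, Cd3e or Cd3g, and at least 1 UMI of Cd8a or Cd8b1. The rule selected 17119 of the 18411 barcodes of these libraries, 8153 in KO and 8966 in WT, and the whole series of 4 libraries held 38519 barcodes. Both groups were C57BL/6Slac mice aged 10 to 12 weeks that carried subcutaneous tumours of MB49, a mouse bladder carcinoma line. For each library, CD45+ CD8+ cells of 3 mice were pooled before a 10x Genomics 3' library was made. Each group therefore held 1 library, no spread between mice could be measured, and no test between the groups was made. All intervals are 95% intervals that cover counting error only. The other pair of libraries, from Rag1-deficient hosts, was made with another kit and entered no comparison, though its levels of Slc15a2 are given at the end. The sources used here do not give the Cre line, the deleted exons of Bfar or the WT genotype at that locus.

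BFAR is named for its part in apoptosis: it can bind both BCL-2 family proteins and caspase-8. It sits in the membrane of the endoplasmic reticulum, and its RING domain gives it ubiquitin ligase activity. CD8 T cells that meet tumour antigen over a long time pass into exhaustion, a course in which Tcf7-expressing progenitors that carry the inhibitory receptor PD-1 give rise to terminal cells with TIM-3 (Havcr2) and CD39 (Entpd1). Other CD8 T cells in tumours take on effector, tissue-resident or innate-like features, and the last include receptors best known from natural killer (NK) cells.

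The KO file held 72752583 UMIs and the WT file 85401443. The median depth of the selected cells was 6870 UMIs in KO and 6341 in WT, with 3.22% and 2.96% mitochondrial UMIs. The selected cells made up 96.9% (96.6 to 97.3) of the filtered KO barcodes and 95.3% (94.9 to 95.7) of the WT barcodes, shares that the sort can set. CD3 and CD8 transcripts were at like levels: Cd3e stood at 499 counts per 1000000 UMIs (CPM) in KO and 488 in WT, Cd8a at 600 and 653, and Trac at 669 and 712. Only 16 barcode sequences occurred in both libraries. Doublets were not called, and barcodes of other cell types that also carried CD3 and CD8 transcripts remained. Mast cell and basophil markers summed to 671 CPM in KO and 1738 in WT, tumour or epithelial markers to 114 and 346, and fibroblast markers to 45.6 and 277. The defining markers of CD4 helper cells were close to 0, with 35 KO and 10 WT UMIs of Cd4. B cell markers summed to 4.58 and 3.57 CPM and NK cell markers to 1.77 and 2.82. The leading results are therefore also given without the barcodes that carried 2 or more UMIs from any single other-cell marker list. These lists include Foxp3 for regulatory T cells and Trdc for gamma-delta T cells. In KO the endothelial list (Pecam1, Cdh5 and Kdr) flagged the most barcodes, 244, against 172 in WT. A single gene held 1426 of its 1429 KO UMIs. The dendritic list flagged 123 KO and 188 WT barcodes, and the mast cell and basophil list 51 and 211. Whether the flagged barcodes were T cells was not tested. All barcodes left out numbered 562 in KO (6.89%, with 13.01% of the UMIs) and 918 in WT (10.2%, with 22.01% of the UMIs). They are called other-marker barcodes below.

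Bfar itself stood lower in KO, but its transcripts were still counted there. It was counted with 1560 UMIs in KO (22.4 CPM, 21.3 to 23.5) and with 2449 UMIs in WT (32.1 CPM), a ratio of 0.697 (0.654 to 0.743). The KO level was below the WT level in each of 9 gated states defined further on, with ratios from 0.556 in cycling cells to 0.783 in Ly6c2 memory-type cells. Bfar lies at chr16:13671858-13703612 on the plus strand (mm10). The 12 measured genes within 2 Mb of it had ratios from 0.847 (Rrn3) to 1.07 (Abcc1). A 3' tag outside the deleted exons does not check the label, so the remaining transcripts say nothing of how complete the deletion was. In the list of endoplasmic reticulum ubiquitin ligase genes, which holds Bfar, 15 of 19 measured members were below 0 on the log2 scale, with a median of −0.08. The median of all measured genes was −0.05, and 63.8% of them were below 0.

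Over all 7415 measured genes, 37 (0.499%) stood at least 1.5 times higher in KO and 213 (2.87%) at least 1.5 times lower, on the scale log2(CPM + 1). Measured genes are those with 20 or more UMIs in the libraries together and 10 or more CPM in either. Without the other-marker barcodes, 37 genes (0.518%) were higher and 23 (0.322%) lower among 7142 measured genes. Of the 213 lower genes, 15 (7.04%) were again lower by that fold and 162 were no longer measured at all, so most of the lower calls came from barcodes with transcripts of other cell types. Of the 37 higher genes, 26 (70.3%) were again higher. With trimmed-mean (TMM) scaling, which shifts every log2 ratio by 0.07, the split was 63 higher and 190 lower. In summed counts, fewer cells that carry a transcript and fewer transcripts per cell cannot be told apart, so shares of cells with a UMI are given beside the levels. Those shares were taken after each cell was thinned to 2000 UMIs, which left 8108 KO and 8886 WT cells.

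**Figure D1:**
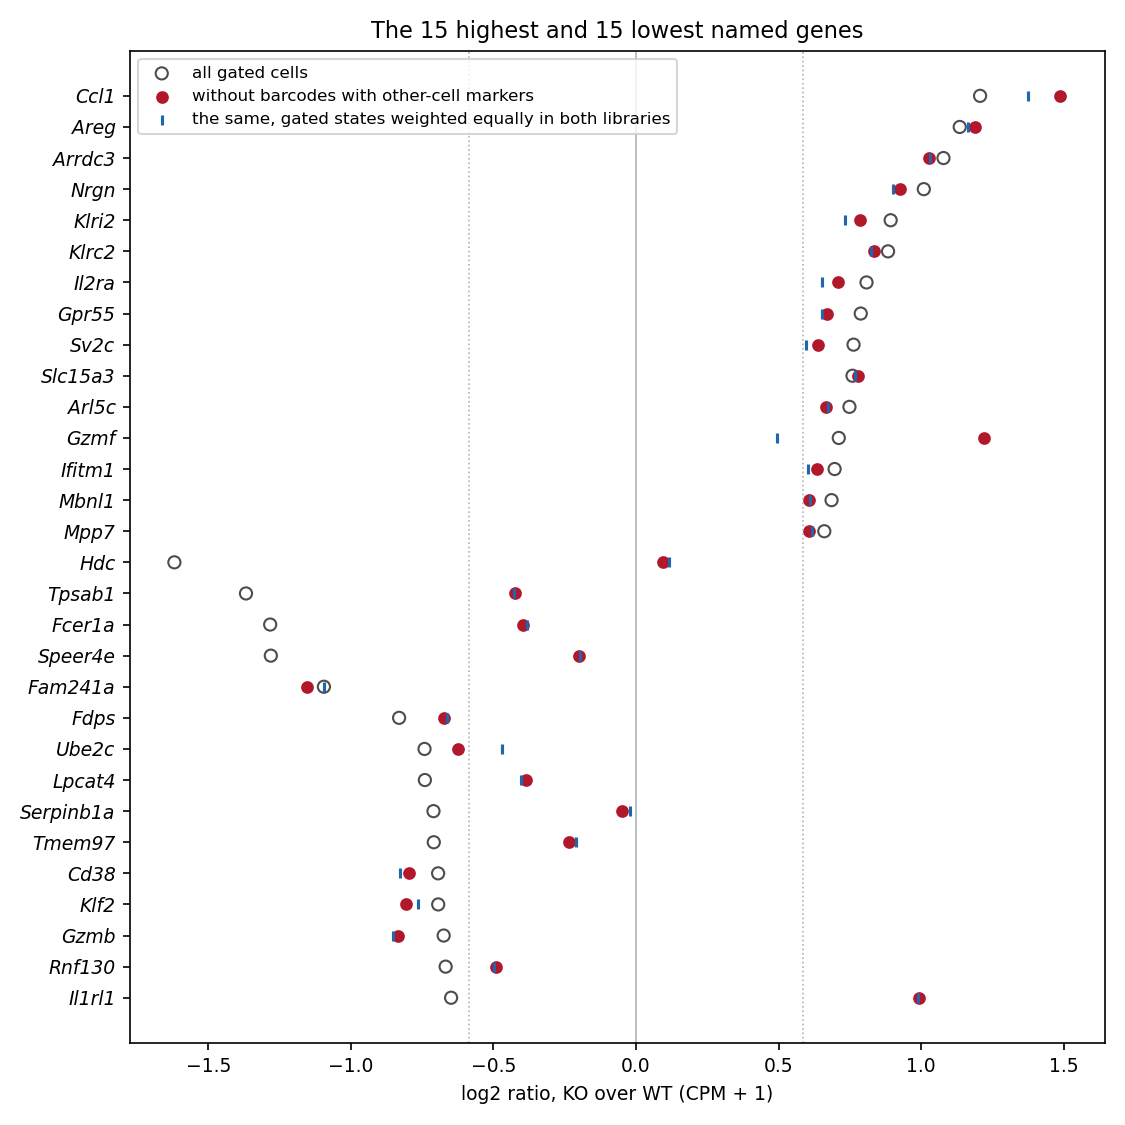
Log2 ratio of KO to WT for 30 genes with the largest and smallest ratios under the naming rule. Open circles are all selected cells, red dots leave out the other-marker barcodes, blue ticks do so with equal weights of the gated states, and dotted lines mark 1.5 times. Arrdc3, Areg, Klrc2 and Mbnl1 keep their place to the right of 0, Fam241a, Klf2 and Gzmb stay to the left, and Hdc and Il1rl1 cross 0.

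Among genes with at least 20 CPM in either library, those with the largest ratios included a chemokine, a growth factor and NK-type receptors. Areg, which encodes amphiregulin, a ligand of the epidermal growth factor receptor that lymphocytes release in tissue repair, stood at 44.6 CPM in KO and 19.8 in WT, a ratio of 2.26 (2.12 to 2.40). It was detected in 3.40% of KO and 1.71% of WT cells. Arrdc3, an arrestin-domain protein that takes part in trafficking of membrane receptors, stood at 46.8 and 21.6 CPM, a ratio of 2.16 (2.04 to 2.30). KO cells with an Arrdc3 UMI made up 8.78%, against 4.94% in WT. For both genes the share of cells and the summed level moved in the same direction. The log2 ratios were 1.19 for Areg and 1.03 for Arrdc3 once the other-marker barcodes were left out.

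Mbnl1 and Ifitm1 were abundant transcripts that stood higher in KO. Mbnl1, the splicing regulator muscleblind-like 1, stood at 1071 CPM in KO and 666 in WT, a ratio of 1.61 (1.59 to 1.63). Its UMIs were in 86.5% of the KO cells and 74.4% of the WT cells. Ifitm1, an interferon-inducible membrane protein, stood at 1605 and 990 CPM, a ratio of 1.62 (1.61 to 1.64), and was found in 33.0% and 21.2% of cells. At such counts the counting intervals are narrow, and they say nothing of the spread between mice. Nrgn, which encodes the calmodulin-binding protein neurogranin, stood at 65.2 and 31.9 CPM. Il2ra, the alpha chain of the interleukin-2 receptor, stood at 97.4 and 55.2 CPM and was found in 12.2% of KO and 7.39% of WT cells. Il2ra is also a gene of regulatory T cells, and Foxp3 UMIs numbered 501 in KO and 252 in WT. Without the other-marker barcodes, Il2ra had a log2 ratio of 0.71 against 0.81 over all cells. That of Foxp3 went from 0.93 to 0.13, a fall partly set in advance, because barcodes with 2 or more Foxp3 UMIs were left out. How much of the Il2ra difference lay in regulatory T cells was not tested.

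Ccl1, a chemokine that attracts cells through CCR8, showed a different kind of difference. Its level was 140 CPM in KO and 60.3 in WT, a ratio of 2.33 (2.25 to 2.41), but the share of cells with a UMI was 3.60% and 2.84%. The positive cells carried on average 6.34 UMIs in KO and 3.89 in WT after thinning. The 1% of cells with the most Ccl1 held 82.0% of its UMIs in KO and 77.2% in WT, so the summed level rested on few cells. With the other-marker barcodes left out it was 147 and 51.9 CPM. Penk and Txnip, which were listed beside Ccl1 in a group of 10 genes chosen on earlier results of these data, were below 0. Of the group's 9 measured members 7 were at least 1.5 times higher, with a median of 0.81. That count is no independent evidence, because the group was chosen on these libraries.

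Most of the measured NK-type receptors stood higher in KO. These lectin-like receptors pair into activating or inhibitory complexes that read stress ligands and non-classical MHC molecules. Klrc2, which encodes the activating receptor NKG2C, held 7001 UMIs in KO and 4117 in WT, or 101 and 54.0 CPM, and was found in 17.3% and 10.4% of cells. Klri2 stood at 24.2 and 12.6 CPM. Klrk1, the gene of NKG2D, had a log2 ratio of 0.50, Klrd1, the gene of the shared partner CD94, one of 0.49, Klre1 one of 0.57 and Klrc1, the gene of the inhibitory NKG2A, one of 0.38. Klrc1 and Klrc2 are close paralogs, and reads could be split between them. Over the 11 measured members of the list the median was 0.38, beside −0.05 for all measured genes. With no filter on low counts it was −0.0478 over 23 members. Fcer1g and Tyrobp, adaptor genes that mast and myeloid cells express strongly, were at −1.31 and −1.30. When the other-marker barcodes were left out, 10 members were measured, 8 were above 0, 3 were at least 1.5 times higher and the median was 0.37. Of all genes measured in that setting, 64.3% were below 0, 0.518% were at least 1.5 times higher and the median was −0.04. NK cell markers summed to under 3 CPM in each library. The selection required CD3 and CD8 transcripts, so their presence beside the receptor transcripts is no result. Which cells carried the receptor transcripts was not tested further.

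Of the single genes named as extremes of their lists, several act in memory and homing. Il7r, the interleukin-7 receptor chain of memory cells, stood at 552 CPM in KO and 404 in WT, a log2 ratio of 0.45. The integrin chain Itgb1 was at 0.49, the calcium-binding S100a4 at 0.61, and the chemokine receptor genes Ccr2 and Cx3cr1 at 0.63 and 0.49. These values were between 0.33 and 0.52 without the other-marker barcodes. Klf2, the transcription factor that drives genes of lymphocyte egress, went the other way. It stood at 153 CPM in KO and 248 in WT, a ratio of 0.617 (0.602 to 0.632), and was found in 20.7% and 29.3% of cells. Leaving out the other-marker barcodes widened that difference to 155 and 272 CPM.

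Several of the genes lower in KO carry effector or regulatory functions and did not depend on the other-marker barcodes. Gzmb, the gene of granzyme B, a protease that cytotoxic cells deliver to their targets, stood at 643.5 CPM in KO and 1028 in WT, a ratio of 0.626 (0.619 to 0.633). KO cells with a UMI made up 36.2% and WT cells 42.8%, and these carried 3.56 and 4.82 UMIs on average. Fewer positive cells and fewer UMIs in each both went into the lower sum. Levels of 625.5 and 1116 CPM remained when the other-marker barcodes were left out. Other granule genes took both directions. Prf1, the gene of the pore-forming perforin, had a log2 ratio of 0.17. Gzmk was at −0.37. Gzma was at −0.19 in summed level, yet it was found in 9.04% of KO and 7.62% of WT cells. Of the 17 measured cytotoxic granule genes 10 were below 0, with a median of −0.02. Over all measured genes 63.8% were below 0, with a median of −0.05, so the list did not stand apart. Ifng, the gene of the cytokine interferon gamma, was at 0.25.

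Maf, the transcription factor c-MAF, stood at 69.4 CPM in KO and 108 in WT, and Cd38, an enzyme that consumes NAD and marks dysfunctional T cells, at 15.9 and 26.4 CPM. Cells with a Maf UMI made up 10.8% of KO and 15.7% of WT cells, and tumour barcodes outside the selection, which should lack T cell genes, carried one in 5.71% and 5.70%, at median depths of 51470 and 41355 UMIs before thinning. Ctla4, an inhibitory receptor gene, stood at 321 and 410.5 CPM. Fam241a, a gene with no well-known role, stood at 30.7 and 66.8 CPM, a ratio of 0.460 (0.438 to 0.484). The log2 ratios of Maf, Cd38, Ctla4 and Fam241a were −0.85, −0.80, −0.53 and −1.15 without the other-marker barcodes, each further from 0 than over all selected cells.

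Other low ratios moved with the markers of mast cells. Hdc, which makes histamine, had a log2 ratio of −1.62 over all selected cells and 0.10 without the other-marker barcodes. Tpsab1, a mast cell tryptase gene, went from −1.37 to −0.42 and Fcer1a, the IgE receptor chain, from −1.28 to −0.40. Il1rl1, the interleukin-33 receptor of mast cells and some T cells, went from −0.65 to 0.99. Among the selected cells, 51 KO and 211 WT barcodes carried 2 or more mast cell or basophil UMIs.

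Of the classical genes of exhaustion, Pdcd1, Havcr2 and Tcf7 differed little. Pdcd1 had a log2 ratio of 0.19 over all selected cells and 0.06 without the other-marker barcodes. Havcr2 was at 0.08 and 0.00, and Tcf7 at 0.10 and −0.01. Entpd1 was at −0.26 and −0.36. Leaving out the other-marker barcodes, the median was −0.01 over the 13 measured progenitor genes, −0.01 over 17 terminal genes and −0.01 over 13 inhibitory receptor genes, beside −0.04 for all measured genes. T cell receptor signalling genes were at −0.03 over 37 members. Single members of the exhaustion lists went further, in both directions. Over all selected cells, Cd101 was at 0.56 and Cd38 at −0.69 in the terminal list. Tnfsf8 was at 0.54 and Id3 at −0.23 in the progenitor list, and Pdcd1lg2 at 0.45 and Ctla4 at −0.35 among inhibitory receptors. The exhaustion factor list had a median of 0.10 over 13 members, with Ikzf2 at 0.44 and Maf at −0.63. With 1 library on each side these values do not show that the groups were alike.

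**Figure D2:**
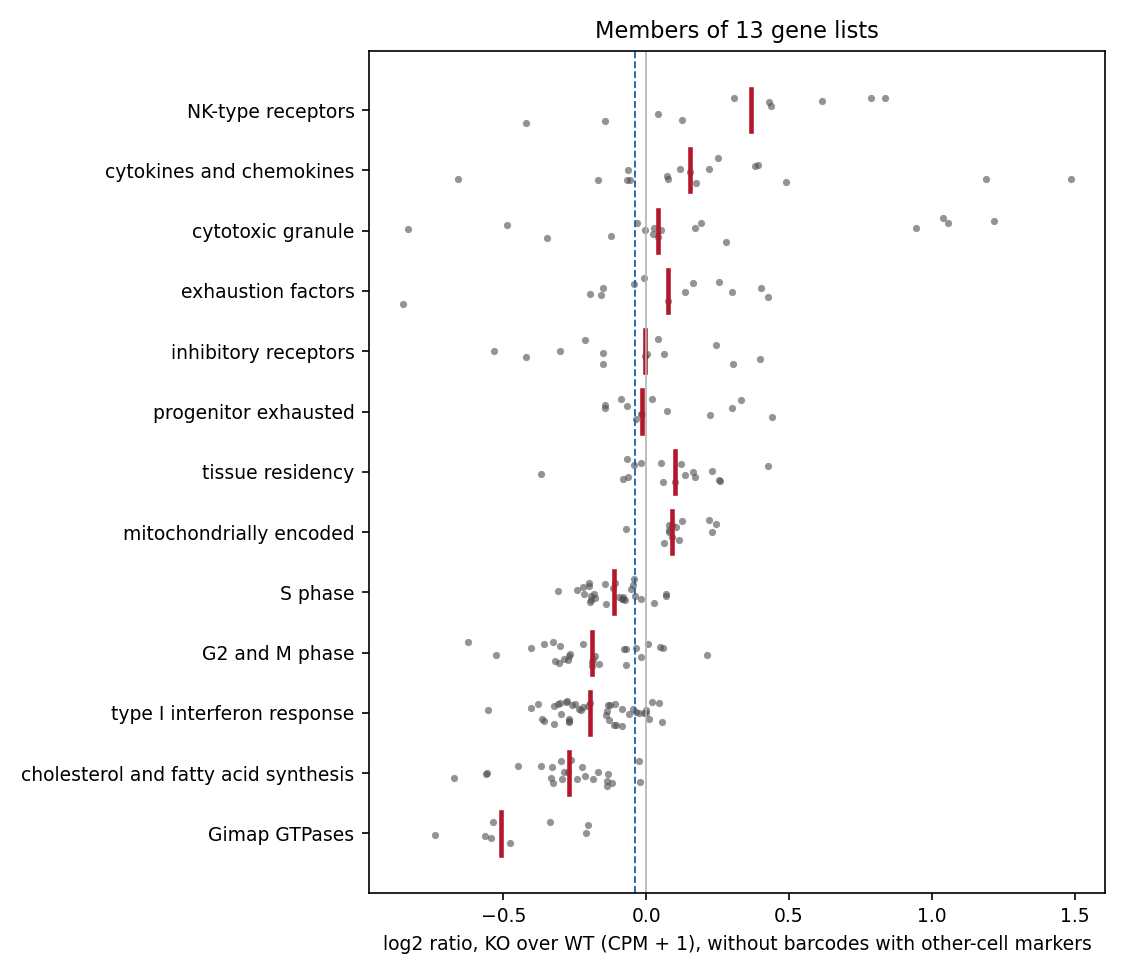
Log2 ratio of KO to WT for the measured members of 13 gene lists, without the other-marker barcodes; each dot is a gene, the red bar is the list's median, and the blue dashed line is the median of all measured genes. The cholesterol and Gimap members lie left of 0 throughout, most NK-type receptors lie right of it, and the exhaustion lists are centred near the dashed line.

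Cholesterol and fatty acid synthesis was the list of metabolism that stood apart most evenly. The pathway builds sterols from acetyl-CoA under SREBP transcription factors, and T cells need its products to grow. All 26 measured members were lower in KO, with a median of −0.29, and 4 were at least 1.5 times lower. Without the other-marker barcodes all 24 measured members were still below 0, with a median of −0.27, beside −0.04 and 64.3% below 0 over all measured genes. With TMM scaling the median was −0.22 and 24 of 26 were below 0. Fdps, which makes farnesyl diphosphate, stood at 48.8 CPM in KO and 87.5 in WT. Sqle, which oxidises squalene, had a ratio of 0.648. Pmvk and Hmgcs1, enzymes of the mevalonate branch, had ratios of 0.678 and 0.761. Acly, which makes cytosolic acetyl-CoA, was closer to 1 at 0.953, and so was Stard4, a sterol carrier, at 0.979. Most single members thus differed by less than 1.5 times, and the pattern lay in their common direction.

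Since the members of this list shared a direction, the promoter windows of 18 of its 26 measured genes that matched the RefSeq promoter table (build GRCm38.p6) were searched on both strands. Windows ran from 250 bases before to 50 after the start. The core of the sterol regulatory element, TCACNCCAC, was in 1 of 18 genes, Hmgcs1, and in 1.44% of all 27025 genes of the table. The E-box CACGTG was in 4 of 18 and in 8.09% of all genes. The CCAAT box, bound by NF-Y, was in 15 of 18 (83.3%) and in 41.1% of all genes. The windows of Hmgcs1 (chr13:119690101-119690400, plus strand) and Nsdhl (chrX:72918271-72918570, plus strand), each with 4 CCAAT matches, are shown 5′ to 3′, the first for its sterol core and the second as a further window with repeated CCAAT letters. The window of Mvk held 5 matches, and those of Hsd17b7, Msmo1 and Fasn held 3 each. Capitals mark CCAAT, or ATTGG where it is on the other strand, and in Hmgcs1 also the sterol core TCACCCCAC.
Hmgcs1: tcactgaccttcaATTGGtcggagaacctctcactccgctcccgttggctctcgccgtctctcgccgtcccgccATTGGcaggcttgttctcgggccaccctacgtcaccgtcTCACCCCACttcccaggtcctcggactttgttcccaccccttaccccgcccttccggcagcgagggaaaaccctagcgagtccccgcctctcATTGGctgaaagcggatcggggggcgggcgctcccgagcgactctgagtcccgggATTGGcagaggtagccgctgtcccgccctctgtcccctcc
Nsdhl: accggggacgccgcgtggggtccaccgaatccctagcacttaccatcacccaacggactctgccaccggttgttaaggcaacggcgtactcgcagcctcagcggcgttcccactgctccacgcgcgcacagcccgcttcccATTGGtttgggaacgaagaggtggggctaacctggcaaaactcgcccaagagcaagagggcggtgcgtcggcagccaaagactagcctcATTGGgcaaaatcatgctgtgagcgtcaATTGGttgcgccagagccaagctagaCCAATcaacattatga
A match is a description of letters and not of binding. Hmgcs1 stood at 36.4 CPM in KO and 47.9 in WT, and Nsdhl, an enzyme of the late sterol steps, at 11.5 and 14.6 CPM.

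The Gimap genes, a cluster of GTPases that maintain resting T cells, were all lower in KO. The median of their 8 measured members was −0.41 over all selected cells, −0.51 without the other-marker barcodes and −0.34 with TMM scaling, and 8 of 8 were below 0 each time. Gimap7 was the lowest member at 67.8 and 105 CPM. Interferon response genes were closer to the background over all selected cells, and further from it without the other-marker barcodes. Of 44 measured members 31 were below 0, with a median of −0.15, beside 63.8% below 0 among all measured genes. Leaving out the other-marker barcodes, 39 of 43 were below 0, with a median of −0.20, beside 64.3% of all genes. With TMM scaling 28 of 44 were below 0 with a median of −0.07, beside 42.6% of all genes. Oasl1 had the lowest log2 ratio of this list at −0.87.

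Cell cycle genes were lower in KO as lists, but by an amount that moved with the cells counted. The G2 and M phase median was −0.40 over 33 members, −0.19 over 27 without the other-marker barcodes, and −0.08 when the gated states were also given equal weights in both libraries. The S phase medians were −0.15, −0.11 and −0.04 in the same order. Apoptosis regulators, the class to which the name of BFAR refers, had a median of −0.05 over 24 members. Bcl2, a survival factor, was at −0.31, while its relatives Bcl2a1b and Bcl2a1d, close paralogs that can share reads, were at 0.57 and 0.62. The unfolded protein response list went from −0.17 over all cells to −0.05 without the other-marker barcodes.

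Cells were placed in 45 gates on thinned counts: 10 states that exclude each other, 26 single-gene gates and 9 joint gates. The KO share was at least 25% higher than the WT share in 12 gates (13 without the other-marker barcodes), and the WT share at least 25% higher than the KO share in 5 gates (7 without them). The widest gap in percentage points was in cells with at least 3 UMIs over 6 NK-type receptor genes, which made up 43.9% (42.8 to 45.0) of KO and 31.2% (30.2 to 32.2) of WT cells. Tumour barcodes of the same libraries passed this gate in 0 of 35 and 1 of 193 cases. Cx3cr1 or Klrg1 effector-type cells, without Pdcd1, made up 4.03% (3.62 to 4.48) and 2.64% (2.32 to 3.00). Of the genes that name this gate, only Cx3cr1 stood higher in KO over the cells placed in gates, at 50.3 and 35.6 CPM. Klrg1 stood at 9.59 CPM in KO and 9.92 in WT. Cells with 2 or more UMIs of granzymes C to G, a gene cluster of close paralogs, made up 1.95% (1.66 to 2.27) and 1.04% (0.835 to 1.27). In summed level over the cells placed in gates, only Gzmf of these genes was higher in KO, at 57.3 and 34.7 CPM. Gzmc stood at 78.9 and 95.9 CPM, Gzmd at 20.9 and 23.8, Gzme at 16.6 and 16.8, and Gzmg at 0.561 and 2.79. Without the other-marker barcodes the log2 ratios were 1.22 for Gzmf, 1.06 for Gzmd and 0.94 for Gzme. Gzmc and Gzmg were not among the genes then at least 1.5 times higher. These 3 gates kept their order without the other-marker barcodes, at 45.1% against 32.2%, 4.04% against 2.66% and 1.72% against 0.79%.

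The 5 gates with the larger WT share were those of Klf2, of Maf, of Gzmk with Maf, of Cd38 and of interleukin 17 or gamma-delta type cells. The last held 0.752% of KO and 1.04% of WT cells, a ratio of 0.727. Trdc is both a gene of this gate and an other-cell marker, so no value without the other-marker barcodes bears on it. Cells with both Gzmk and Maf UMIs made up 3.13% of KO and 6.14% of WT cells, and 3.21% and 6.56% without the other-marker barcodes. Cells with a Cd38 UMI made up 2.76% and 4.90%. Differences under that size were seen for further gates. Interferon-responding cells made up 13.01% (12.3 to 13.8) and 15.4% (14.7 to 16.2), and cycling cells 5.20% and 6.45%. The cycling gate also caught 37.1% and 33.2% of the tumour barcodes, and cycling cells made up 4.57% and 5.50% without the other-marker barcodes. Ctla4-positive cells made up 39.7% and 47.1%.

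Shares in the states of the exhaustion course were closer to each other. Progenitor exhausted-type cells (Pdcd1 with Tcf7 or Slamf6, without Havcr2 and Entpd1) made up 5.06% of KO and 5.03% of WT cells. Terminal exhausted-type cells (Pdcd1 with Havcr2, Entpd1 or Cd101, without Tcf7) made up 6.80% (6.26 to 7.37) and 6.39% (5.89 to 6.92), and other PD-1-positive cells 18.4% and 16.3%. Ly6c2 memory-type cells made up 20.6% and 20.2%. Havcr2-positive cells made up 10.1% in both libraries.

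**Figure D3:**
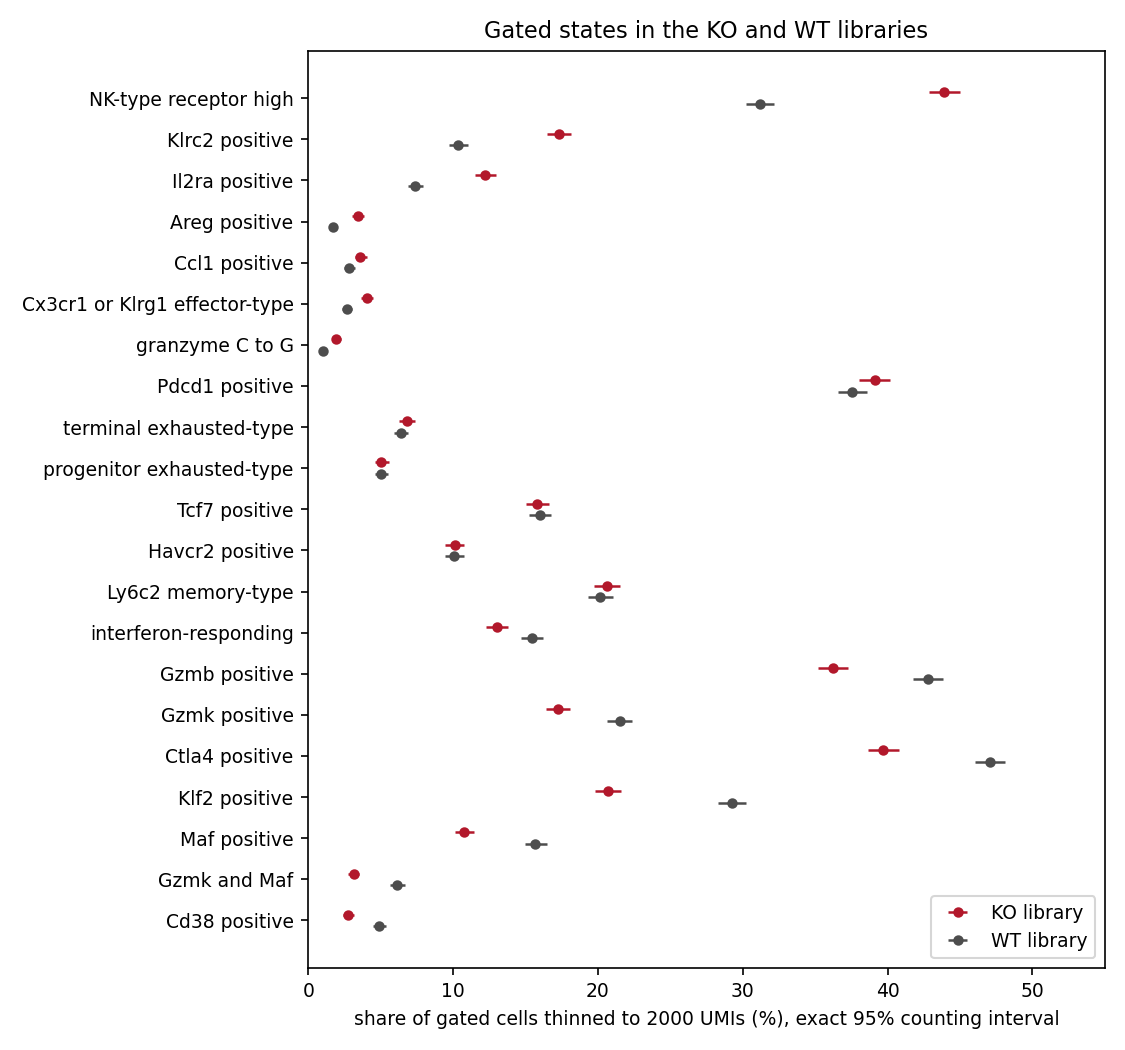
Share of cells, in percent, that fell in each of 21 gates in KO and WT after thinning to 2000 UMIs; bars through the points are exact 95% binomial intervals. The NK-type receptor gate is higher in KO, the Klf2, Ctla4, Gzmb and Maf gates are higher in WT, and the progenitor, terminal and Havcr2 gates overlap.

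The differences in genes were seen mostly within states rather than through their shares. Of the difference in CPM over all selected cells, the part that lay within states, with the mix of states held equal, was 98.2% for Mbnl1, 97.6% for Arrdc3, 97.6% for Areg and 95.6% for Ccl1. It was 93.9% for Klf2, 102% for Maf and 107% for Gzmb, where a value above 100 means that the mix went the other way. No naive-type cell carried a Gzmb UMI after thinning, so the split for Gzmb was also partly set by the gating. The value for Gzmf was 35.2%, but Gzmf helps to define the granzyme C to G gate. Its part in the mix of states was therefore partly set by the gating, and the value is no contrast to the others. Over all selected cells, 19 genes (0.256%) were at least 25% higher in KO in each of the 9 states with 100 or more cells in both libraries, and 25 (0.337%) were at least 25% higher in WT in each. The numbers were 15 (0.21%) and 13 (0.182%) once the other-marker barcodes were left out. Mbnl1, Areg, Klrc2, Ifitm1, Arl5c and Arrdc3 were among these 15, and Klf2, Fam241a and Bfar among the 13.

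**Figure D4:**
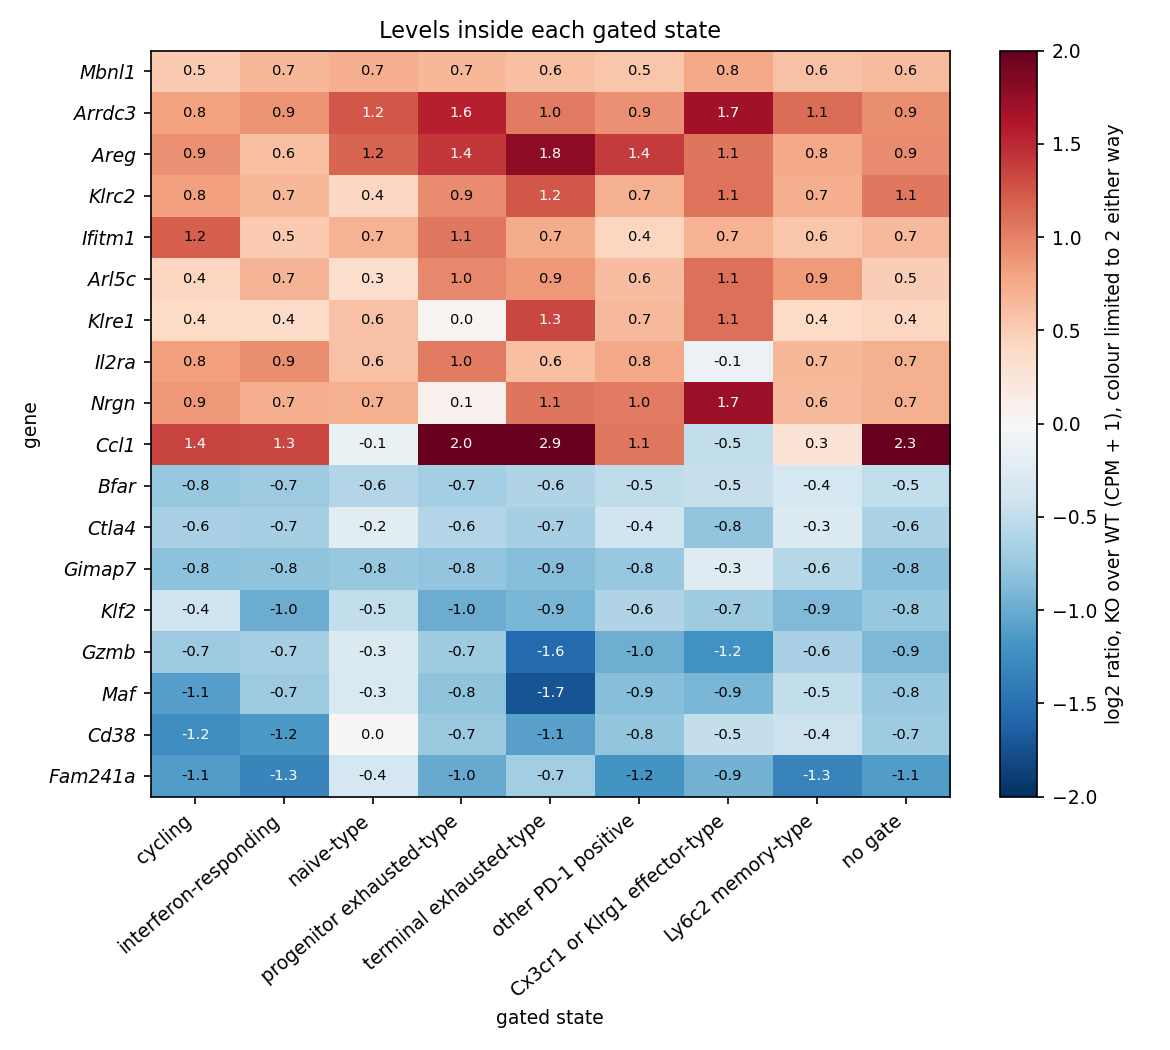
Heat map of the log2 ratio of KO to WT for 18 genes (rows) within 9 gated states (columns), without the other-marker barcodes; red is higher in KO and blue lower. Mbnl1, Arrdc3, Areg and Klrc2 are red and Klf2 and Fam241a blue in each state, whereas Ccl1 changes colour between states.

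The size of the differences varied by state. Mbnl1 had log2 ratios from 0.52 to 0.75. Klrc2 ranged from 0.41 in naive-type to 1.24 in terminal exhausted-type cells, where 22.5% of KO and 8.80% of WT cells carried a UMI. Areg was also furthest apart in terminal exhausted-type cells, at 86.0 CPM in KO and 24.1 in WT, a log2 ratio of 1.79. Ccl1 stood there at 283 and 36.6 CPM, a log2 ratio of 2.92, but at 52.9 and 74.6 CPM in Cx3cr1 or Klrg1 effector-type cells, a log2 ratio of −0.49. The Ccl1 difference over all cells was thus not shared by all states.

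Terminal exhausted-type cells also held the lowest ratios of Gzmb and Maf. Gzmb stood there at 687.5 CPM in KO and 2019 in WT, a ratio of 0.340 (0.326 to 0.356), and 41.2% of KO and 56.9% of WT cells carried a UMI. Maf stood there at 72.5 and 241 CPM, a ratio of 0.301 (0.263 to 0.343), with UMIs in 12.0% and 27.6% of cells. In Ly6c2 memory-type cells the Gzmb levels were 573 and 899 CPM and the Maf levels 43.1 and 60.9 CPM. Klf2 was at least 25% higher in WT in 9 of 9 states, with log2 ratios between −0.997 and −0.39. The same held for Gzmb, Maf and Gimap7 in 8 of 9 and for Bcl2 in 5 of 9. For Gzmb the exception was the naive-type state, in which no cell of either library carried a Gzmb UMI after thinning. The Gzmb ratio in that state was thus partly set by the gating and is no contrast to the others. Il7r was above 0 in 9 of 9 and furthest apart in terminal exhausted-type cells, at a log2 ratio of 1.04. The V beta segments of this gate also differed between the libraries. Trbv14 was the most common in WT, at 23.6% of assigned cells against 12.0% in the WT library, and Trbv13-1 in KO, at 20.8% against 15.4%. Their part in these ratios was not tested.

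T cell clones can carry their own expression, and pooled tumours can differ in clones, so the V beta segments of the receptor were examined. A single segment could be assigned in 1586 KO (19.6%) and 1677 WT cells (18.9%). The libraries differed in their segments: Trbv13-1 was in 15.4% of assigned KO and 3.34% of WT cells, Trbv15 in 3.28% and 14.8%, and Trbv29 in 13.1% and 6.92%. Trbv12-2 was common in both, at 13.7% and 17.1%, as was Trbv12-1 at 11.3% and 12.3%.

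Within 10 segments that had 50 or more cells in each library, Mbnl1 was higher in KO in 10 of 10, with ratios from 1.40 to 1.70 and each interval above 1. Arrdc3 was higher in 10 of 10 as well, from 1.27 to 3.06, as were Klrc2, from 1.26 to 4.06, and Gpr55, a lipid receptor gene, from 1.31 to 3.59. Klf2 was lower in 10 of 10, from 0.391 to 0.988, with 7 intervals below 1. Bfar was lower in 10 of 10 as well, from 0.518 to 0.926, with 1 interval below 1. Maf was lower in 9 of 10, with 8 intervals below 1. Areg was higher in 9 of 10 and Il2ra in 8. Ifitm1 was higher in 7, but lower in 3, with 2 intervals below 1 and a lowest ratio of 0.460 among Trbv13-2 cells. Fam241a, Gimap7, Cd38 and Fdps were lower in 9 of 10.

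Ccl1 and Gzmb were less even. The Ccl1 ratio ran from 0.179 among Trbv15 cells to 22.3 among Trbv14 cells and was above 1 in 5 of 10 segments. Gzmb was lower in KO in 7 of 10, from a ratio of 0.276 (0.253 to 0.302) among Trbv14 cells to 1.58 (1.40 to 1.79) among Trbv29 cells. The segments are not clones, and the part of clone sizes in these differences was not tested.

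**Figure D5:**
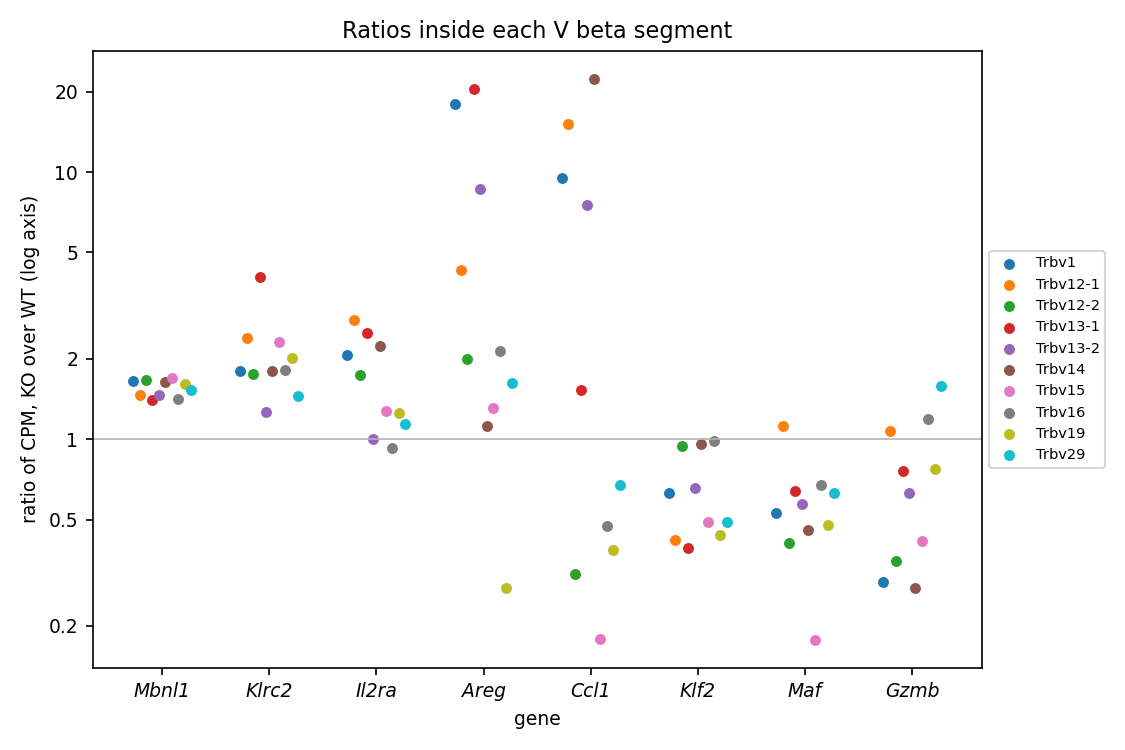
Ratio of KO to WT level (log axis) of 8 genes within 10 V beta segments, without the other-marker barcodes; each dot is a segment and the line marks a ratio of 1. Mbnl1 dots lie close together above 1, whereas Ccl1 dots spread from 0.179 to 22.3.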

How the data were processed

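The authors deposited matrices of whole-number UMI counts per gene and barcode, written by Cell Ranger 6.1.1 per the file headers; Cell Ranger 6.0.0, Seurat 3.2.3 and mm10 are named in the submitters' processing notes. Annotation release and use of intronic reads: not given in the sources used here. From these counts, UMIs of the selected barcodes were summed per library and scaled to CPM, and log2 ratios used a pseudocount of 1 CPM. Levels carry exact Poisson intervals, ratios exact conditional binomial intervals and shares Clopper-Pearson intervals (95%). Gene programmes are 38 lists described by counts and medians, with no set test. The text names Bfar, the 15 highest and 15 lowest ratios (genes of 20 CPM or more in either library and 50 UMIs or more in all, without receptor segments, sex-linked, ribosomal, mitochondrial, haemoglobin, unnamed and other-cell marker genes), the highest and lowest member of each list, gate genes and genes that held in every state. Other list members named beside them, Slc15a2, the ratios within segments, the promoter search and the genes of the closing section were chosen after their values were seen. Members, lists and gates were chosen with earlier results of these data known. V beta segments were assigned where a cell had 1 segment or one at least 2 times the next. Doublets were not called; leaving out the 8% of barcodes with the most UMIs was an alternative. Tools were Python 3.11.15, numpy 2.4.6, scipy 1.17.1, pandas 2.3.3, matplotlib 3.10.9 and, for TMM, edgeR 4.0.16 in R 4.3.3. The computations were tested on simulated data. Some list members and an added gate are not reported here.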

Additional observations from a re-analysis of the deposited data

How the results depend on the processing

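Each group held 1 library, so no setting measures the spread between mice. No paired analysis was possible because each group held 1 library. Of 53 gene ratios past 1.5 times, 49 kept their sign under all settings. The 37 higher and 213 lower genes became 95 and 1059 with no filter on low counts. TMM scaling gave 63 higher genes. Lower genes numbered 63 with a mean of per-cell CPM, 51 without the 8% of barcodes with the most UMIs, 23 without other-marker barcodes and 22 when these were left out with equal state weights. The lists with a median of at least 0.1 numbered 5, but 17 with TMM and 14 with a median of ratios. Those at −0.1 or below numbered 11, but 6 with TMM, 5 without other-marker barcodes, 7 without the deepest 8% and 4 without other-marker barcodes at equal weights. Gates with fewer KO cells numbered 5, but 8 without the deepest 8% or thinned to 1000 UMIs and 9 thinned to 4000. Among values that stood past their threshold, those that changed sign were the NK-type receptor median (−0.0478 over 23 members with no filter) and, without other-marker barcodes, the interleukin 17 list (0.0357, 0.0482 at equal weights and 0.0301 without the deepest 8%), Hdc (0.10 and 0.12), Il1rl1 (0.99 and 0.99), S100a1 (0.15 and 0.11), Tmem176b (0.0887, 0.12 and 0.0456) and the interleukin 17 or gamma-delta gate (ratio 1.04 thinned to 1000 UMIs, and 1.51 without other-marker barcodes, which removes cells by Trdc, a gene of this gate). Several lists with medians within 0.1 of 0 also changed sign. The cause was not tested beyond which barcodes were left out. Leaving out barcodes with a Foxp3 UMI and giving equal weights without other-marker barcodes were chosen after seeing the data.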

Other observations

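Slc15a2, a peptide transporter gene chosen here after its values were seen, had the largest log2 ratio of all 7415 measured genes, at 3.09, ahead of Krt14 at 2.68. The KO cells held 711 UMIs of it (10.2 CPM) and the WT cells 24 (0.315 CPM). Without the other-marker barcodes the counts were 628 and 8, a ratio of 77.0 (38.8 to 179). It was found in 7.004% of KO and 0.234% of WT cells, unthinned. In the libraries labelled Young and Aged, made with another kit, it stood at 22.6 and 13.8 CPM under the same selection. Of the libraries in the series, WT thus held the lowest level. Whether the low WT level or the KO level was the unusual one was not tested. Slc15a2 stood higher in KO than in WT in each of the 9 states compared. The gene lies at chr16:36750177-36784962 on the minus strand (mm10), 23.1 Mb from Bfar on the same chromosome. Without the other-marker barcodes, neighbours with a ratio lay between 0.799 (Iqcb1) and 1.28 (Hspbap1), with Polq at 1.24 and Ildr1 at 1.07. Cstdc5, a further neighbour, held 444 UMIs in KO and 0 in WT over all selected cells, and 6 and 0 without those barcodes.

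Some genes outside the naming rule differed past 1.5 times once the other-marker barcodes were left out, and were chosen after their values were seen. Il13, a type 2 cytokine gene, held 635 UMIs in KO and 230 in WT, a log2 ratio of 1.24. The stress-induced transcription factor Atf3 was at 0.86, the phospholipid-binding Anxa1 at 0.94 and the nuclear lamina gene Lmna at 0.74. The glycine-cleaving enzyme gene Gldc was at 1.02. Trgc1, a constant segment of the gamma chain of the T cell receptor, held 208 UMIs in KO and 842 in WT, a log2 ratio of −1.77, and Trdc, of the delta chain, stood at 2.24 CPM in KO and 13.3 in WT over all selected cells. Mcpt2, a mast cell protease gene, was at −1.61, and its place among T cell transcripts was not tested. Emp1 was at −0.78, the Notch pathway gene Dtx1 at −0.80 and the folate receptor gene Izumo1r, known from regulatory and anergic T cells, at −0.80.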
